A study of Rattus norvegicus with 18 samples.

Results

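Rab proteins are small GTPases that direct vesicle traffic, and their genes were taken as the rat gene symbols made of Rab, a number, and at most 1 letter and 1 further digit. This gave 55 members, all of them among the 17307 symbols counted in astrocytes and the 17327 symbols counted in microglia, 16704 of which were in both. Genes of Rab partners, such as Rab11fip1, are not members and are described after them. The choice used no measured value, although the rise of Rab32 in both cell types was known when the family was chosen.

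The cells were primary astrocytes and microglia of WT genotype, grown from the cortex of Sprague-Dawley rat pups at postnatal day 2. Each cell type was left as a control or was given fibrils of the amyloid-β peptide Aβ42 or Aβ40 for 24 h, and polyadenylated RNA was sequenced from 3 libraries in each of the 6 groups. The fibrils were seeded from synthetic peptide, so the treated groups model contact with pure fibrils and not with plaques of a brain. The comparisons ask how each fibril moved transcript levels in each cell type, and whether the fibrils or the cell types differed. The counts on genes in astrocytes were 3674043, 3949126 and 13768995 in control, 14839572, 10120352 and 8333014 with Aβ42 and 9574779, 19013919 and 15302150 with Aβ40 (replicates 1, 2 and 3). In microglia they were 8249339, 5098145 and 6648595 in control, 2613723, 22274367 and 17687416 with Aβ42 and 4104702, 4425805 and 2271834 with Aβ40. A floor of 3 counts came to between 0.158 and 0.817 CPM (a gene's counts over all counts on genes of its library, brought to a fixed total) in the astrocyte libraries and between 0.135 and 1.32 CPM in the microglia libraries, and covers counting error only. The labels do not say that replicates are separate cultures or animals, so p-values may measure technical spread.

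A Rab protein is active while bound to GTP, when it sits on a membrane and recruits effectors such as tethers and motors, and inactive while bound to GDP. Exchange factors load GTP, GTPase-activating proteins speed its hydrolysis, and GDP dissociation inhibitors keep the prenylated inactive form in the cytosol. In glia, Rab proteins act in the uptake of particles, in the maturation of phagosomes, endosomes and lysosomes that receive amyloid fibrils, and in secretion.

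1 microglia library and 1 astrocyte library stood apart from their groups. Over 10837 genes, the log2 CPM of microglia Aβ42 replicate 1 correlated at 0.961 and 0.961 with the other Aβ42 replicates and at 0.981, 0.981 and 0.973 with the Aβ40 replicates, while Aβ42 replicates 2 and 3 correlated at 0.996. Over 11690 genes, astrocyte control replicate 2 correlated at 0.947 and 0.946 with control replicates 1 and 3, which correlated at 0.983. These correlations are across genes, which are not independent replicates. Astrocyte control replicate 2 also had 34.2% of its counts on no single gene, against 28.9% and 28.7% in the other controls. Microglia Aβ42 replicate 1 had 2613723 counts on genes, within the range with Aβ40 and far below Aβ42 replicates 2 and 3. Counts of Rab genes against control are therefore given with and without these libraries, and some other results are given without them as well. Levels are CPM scaled by TMM factors within a cell type, and a gene is said to have risen or fallen where edgeR's quasi-likelihood test gave an adjusted p under 0.05 over all genes tested. A call is said to be lost where it no longer passed under another setting, the replicate number as a block aside. The ranges of adjusted p over the alternatives do include that block. In bulk RNA, fewer cells of a type and less RNA per cell cannot be told apart.

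Rab32 and Rab20 rose with both fibrils in both cell types, and Rab27a and Rab7b fell in the same comparisons. Rab32 serves lysosome-related organelles and phagosome maturation. In astrocytes its scaled level was 24.2, 31.1 and 31.7 CPM in the 3 control libraries, 260.3, 309 and 323 CPM with Aβ42 and 295, 222 and 266 CPM with Aβ40. In microglia it was 73.7, 72.6 and 74.9 CPM in control, 275, 304 and 308 CPM with Aβ42 and 281, 272 and 282 CPM with Aβ40. Every treated library lay above every control library of its cell type, and the Aβ42 and Aβ40 libraries overlapped in both cell types. The means ± SD (n = 3) in astrocytes were 29.0 ± 4.17, 298 ± 33.1 and 261 ± 36.9 CPM in the order control, Aβ42, Aβ40. The log2 fold change of Rab32 in astrocytes was 3.35 ± 0.17 (SE, edgeR adjusted p = 1.00e-07) with Aβ42, a 10.2-fold rise, and 3.16 ± 0.17 (SE, edgeR adjusted p = 1.60e-07) with Aβ40. In microglia it was 2.01 ± 0.10 (SE, edgeR adjusted p = 6.45e-09) with Aβ42, a 4.02-fold rise, and 1.91 ± 0.10 (SE, edgeR adjusted p = 1.28e-08) with Aβ40. The 2 fibril comparisons of a cell type share their 3 control libraries.

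Rab20, which acts on maturing phagosomes in macrophages, stood at 5.84, 3.59 and 4.71 CPM in control astrocytes, 34.7, 27.6 and 27.4 CPM with Aβ42 and 18.3, 23.6 and 20.5 CPM with Aβ40. Microglia had 9.78, 11.6 and 10.7 CPM in control, 48.0, 57.0 and 57.1 CPM with Aβ42 and 41.3, 46.3 and 42.7 CPM with Aβ40. Treated and control libraries of Rab20 did not overlap in either cell type, and in both cell types the Aβ42 libraries lay above the Aβ40 libraries. Its log2 fold changes were 2.67 ± 0.20 (SE, edgeR adjusted p = 2.20e-06) and 2.15 ± 0.20 (SE, edgeR adjusted p = 1.26e-05) in astrocytes, for Aβ42 and Aβ40. In microglia they were 2.36 ± 0.13 (SE, edgeR adjusted p = 2.59e-08) and 2.03 ± 0.14 (SE, edgeR adjusted p = 1.80e-07). Set directly against Aβ40, the Aβ42 value of Rab20 was 0.52 ± 0.17 (SE, edgeR adjusted p = 0.396) in astrocytes and 0.33 ± 0.12 (SE, edgeR adjusted p = 0.0689) in microglia, neither of which passed. Without microglia Aβ42 replicate 1 the microglia value was 0.39 ± 0.10 (SE, edgeR adjusted p = 0.00341), which passed.

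Rab27a, which moves secretory lysosomes and exosome-bearing endosomes to the plasma membrane, fell far in microglia and less in astrocytes. The microglia libraries had 33.2, 30.5 and 37.5 CPM in control, 4.40, 4.24 and 3.65 CPM with Aβ42 and 4.10, 3.13 and 3.68 CPM with Aβ40. Astrocytes had 9.18, 8.86 and 7.95 CPM in control, 4.46, 5.36 and 5.52 CPM with Aβ42 and 5.61, 5.30 and 5.58 CPM with Aβ40. No treated library reached the lowest control library of its cell type. In microglia Rab27a was 8.40-fold lower with Aβ42 and 9.31-fold lower with Aβ40, with log2 fold changes of -3.07 ± 0.16 (SE, edgeR adjusted p = 1.32e-08) and -3.22 ± 0.19 (SE, edgeR adjusted p = 6.08e-08). In astrocytes the log2 fold changes were -0.75 ± 0.17 (SE, edgeR adjusted p = 0.00513) and -0.64 ± 0.17 (SE, edgeR adjusted p = 0.0120). The astrocyte Aβ40 call of Rab27a was lost without astrocyte Aβ40 replicate 2 (edgeR and DESeq2 adjusted p from 0.00919 to 0.0540 over its 16 alternatives).

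Rab7b, a late endosomal Rab of myeloid cells, had 109, 139 and 126 CPM in control microglia, 44.0, 48.0 and 50.1 CPM with Aβ42 and 42.2, 36.7 and 46.0 CPM with Aβ40. In astrocytes Rab7b had 21.7, 23.7 and 23.8 CPM in control, 11.8, 11.2 and 10.4 CPM with Aβ42 and 16.1, 14.2 and 13.3 CPM with Aβ40. The treated libraries lay below the controls in both cell types. Its log2 fold changes in microglia were -1.38 ± 0.12 (SE, edgeR adjusted p = 1.69e-06) with Aβ42 and -1.59 ± 0.13 (SE, edgeR adjusted p = 9.54e-07) with Aβ40. In astrocytes they were -1.05 ± 0.14 (SE, edgeR adjusted p = 0.000167) and -0.67 ± 0.14 (SE, edgeR adjusted p = 0.00321). Markers of microglia fell in the same astrocyte libraries. Their sum over 14 genes was 624, 471 and 602 CPM in control astrocytes, 132, 137 and 132 CPM with Aβ42 and 131, 119 and 135 CPM with Aβ40, and 13 of the 14 fell with either fibril. The most abundant of them in control astrocytes was Csf1r (124 CPM). Cx3cr1 was at or under the floor with both fibrils and P2ry12 with Aβ42. Rab7b, Rab27a and Rab8b were higher in control microglia than in control astrocytes, and the part of microglial RNA in their fall in astrocytes was not tested.

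The promoter windows of these 4 genes are shown because they moved in 1 direction with both fibrils in both cell types. Rab4a, which also fell in these comparisons but by less, is not shown. Each window holds the 250 bases before the gene start on the strand of the gene, from RefSeq on GRCr8, at chr1:6781259-6781508 (minus strand) for Rab32, chr16:84721177-84721426 (plus strand) for Rab20, chr8:82663123-82663372 (plus strand) for Rab27a and chr13:45673195-45673444 (plus strand) for Rab7b. Capitals mark motif matches on either strand.
Rab32: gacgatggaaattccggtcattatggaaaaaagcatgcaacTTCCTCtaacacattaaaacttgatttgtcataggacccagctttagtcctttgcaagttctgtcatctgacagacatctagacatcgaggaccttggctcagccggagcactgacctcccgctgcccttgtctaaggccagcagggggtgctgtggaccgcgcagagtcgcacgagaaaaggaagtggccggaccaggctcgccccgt
Rab20: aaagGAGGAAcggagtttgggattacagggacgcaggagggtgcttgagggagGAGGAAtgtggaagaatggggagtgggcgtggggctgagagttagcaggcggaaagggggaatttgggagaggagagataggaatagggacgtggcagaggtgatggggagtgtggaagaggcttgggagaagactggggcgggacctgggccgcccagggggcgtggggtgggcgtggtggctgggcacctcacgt
Rab27a: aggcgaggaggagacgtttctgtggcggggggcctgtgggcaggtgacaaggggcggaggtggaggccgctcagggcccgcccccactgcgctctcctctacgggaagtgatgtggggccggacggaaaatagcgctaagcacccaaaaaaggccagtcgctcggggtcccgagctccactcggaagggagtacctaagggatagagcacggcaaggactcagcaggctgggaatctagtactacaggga
Rab7b: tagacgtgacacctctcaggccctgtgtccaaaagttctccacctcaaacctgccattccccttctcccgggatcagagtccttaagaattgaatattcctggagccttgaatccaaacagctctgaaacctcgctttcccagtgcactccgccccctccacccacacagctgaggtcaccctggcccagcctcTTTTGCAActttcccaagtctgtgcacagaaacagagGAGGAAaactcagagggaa
In the table of promoters, 45 of the 55 members had a match, with 46 windows. The motifs searched were CACGTG, the E-box core of the lysosomal CLEAR element, TGANTCA of AP-1, TTCNNNGAA of STAT factors, the interferon-stimulated response element, the NF-kB site, TTGCNNAA of C/EBP factors and GAGGAA of PU.1. GAGGAA or its reverse complement stood 209 bases before the start in Rab32, 246 and 197 bases before it in Rab20, and 19 bases before it in Rab7b, where TTGCNNAA stood at 56 bases. The Rab27a window held none of these motifs. GAGGAA was in 23.3% of all 33469 windows of 250 bases and in 12 of the 46 Rab windows. TTGCNNAA was in 9.22% of all windows and in 4 Rab windows. The other motifs were in 5.59% (CACGTG), 6.34% (TGANTCA), 7.67% (TTCNNNGAA), 3.41% (the interferon element) and 3.54% (NF-kB) of all windows, and in 3, 4, 2, 1 and 2 Rab windows. GAGGAA and TTCNNNGAA can share letters, and a match describes the window only.

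**Figure D1:**
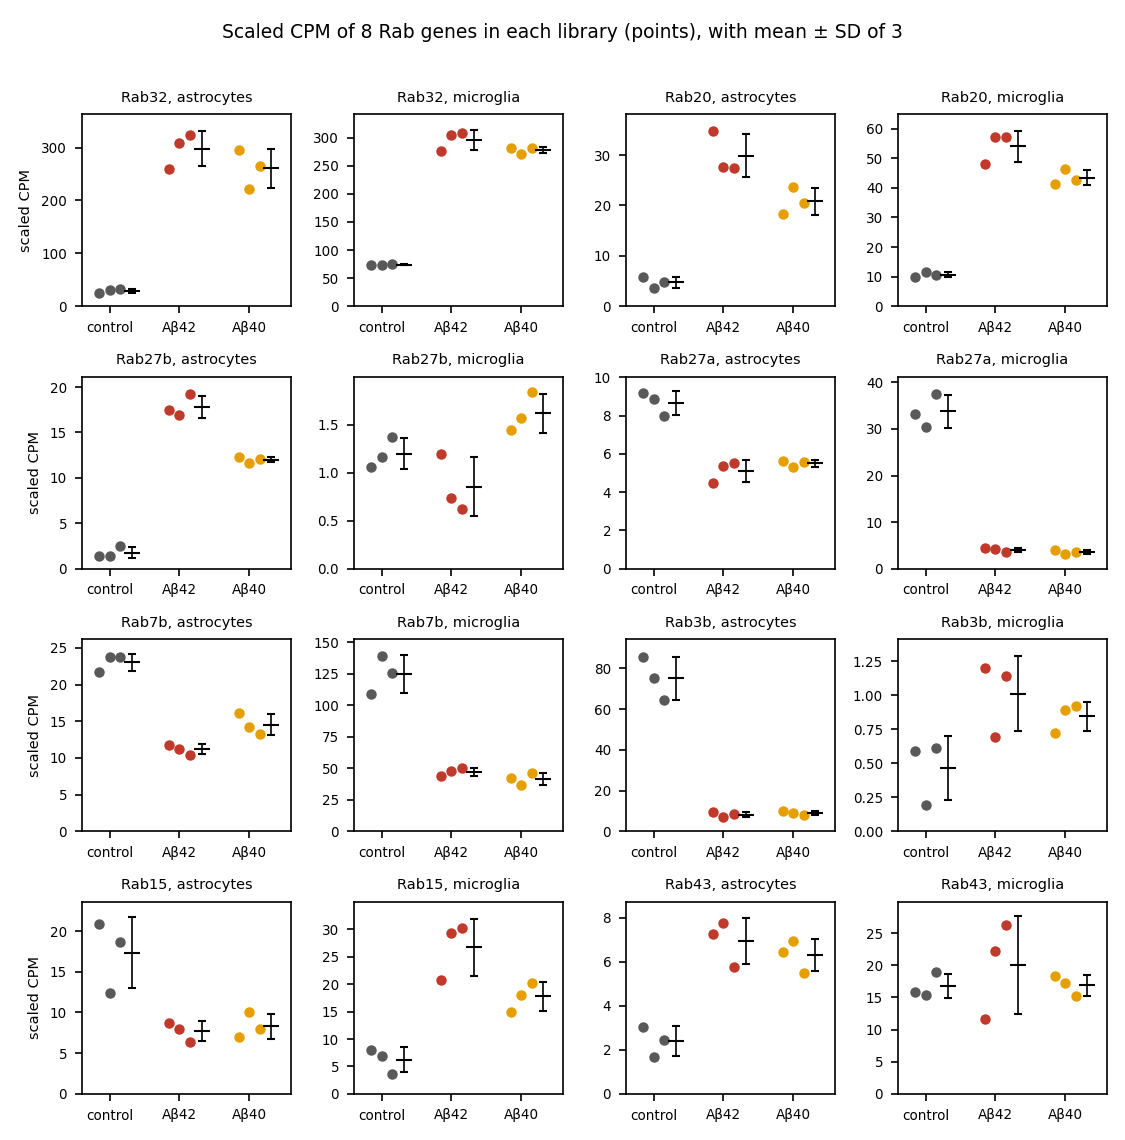
Scaled level in each library (points) with the mean of 3 libraries and its SD, for 8 genes (Rab32, Rab20, Rab27b, Rab27a, Rab7b, Rab3b, Rab15 and Rab43), with treatment on the horizontal axis, scaled CPM from 0 on the vertical axis and a panel for each cell type. Rab32 ranged from 24.2 to 31.7 CPM in control astrocytes and from 260.3 to 323 CPM with Aβ42.

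In astrocytes, Rab genes went up and down in near equal numbers, and all genes tested also moved in both directions. Of the 55 members, 52 could be tested in astrocytes, and Rab17, Rab25 and Rab3c were too low. With Aβ42, 9 Rab genes rose and 10 fell, where 16.5% of all 11690 genes rose and 20.4% fell. With Aβ40, 11 Rab genes rose and 10 fell, beside 14.9% and 18.4% of all genes. The median log2 fold change of the Rab genes was -0.02 with Aβ42 and -0.08 with Aβ40, against 0.00 and 0.00 over all genes. Changes of 2-fold or more numbered 11 with Aβ42 and 8 with Aβ40, where 19.8% and 17.8% of all genes passed. These counts, and those of members that rose, include Rab19. It had 1, 2 and 8 counts in the controls and could be tested only through the treated groups. The sum over the 55 genes was 6300.5, 6406 and 5490.2 CPM in control astrocytes, 5539, 5718 and 5679 CPM with Aβ42 and 5629, 5609.9 and 5516 CPM with Aβ40. Without control replicate 2, 9 Rab genes rose and 10 fell with Aβ42 (22.1% and 24.8% of 11859 genes), and 10 rose and 8 fell with Aβ40 (19.6% and 22.2%). The Aβ40 count of 21 fell to 13 without astrocyte Aβ40 replicate 2 or 3. The share of all genes in those fits is not given, so the lower count does not show a loss particular to Rab genes.

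In microglia, 48 members could be tested, since Rab17, Rab25, Rab19, Rab26, Rab27b, Rab3b and Rab40b were too low, and Rab17 was at or under 3 counts in every library of both cell types. With Aβ42, 9 Rab genes rose and 10 fell, where 27.1% of all 10837 genes rose and 26.6% fell. With Aβ40, 6 Rab genes rose and 8 fell, beside 19.6% and 21.4% of all genes. Their median log2 fold change was -0.13 with Aβ42 and -0.02 with Aβ40, and 0.01 and 0.01 over all genes. Changes of 2-fold or more numbered 7 with Aβ42 and 5 with Aβ40, where 21.3% and 17.6% of all genes passed. Aβ42 replicate 1 had a summed Rab level of 6538 CPM, above the 5333 and 5425 CPM of the other Aβ42 libraries and within the 5861, 5874 and 6541 CPM of Aβ40. Control microglia had 6022, 6077 and 6318 CPM. Without that replicate, 51 Rab genes could be tested, and with Aβ42 13 rose and 18 fell (34.6% and 35.7% of 11155 genes). With Aβ40, 12 then rose and 15 fell (26.4% and 27.6%), in a fit whose spread is estimated over all groups of the cell type.

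**Figure D2:**
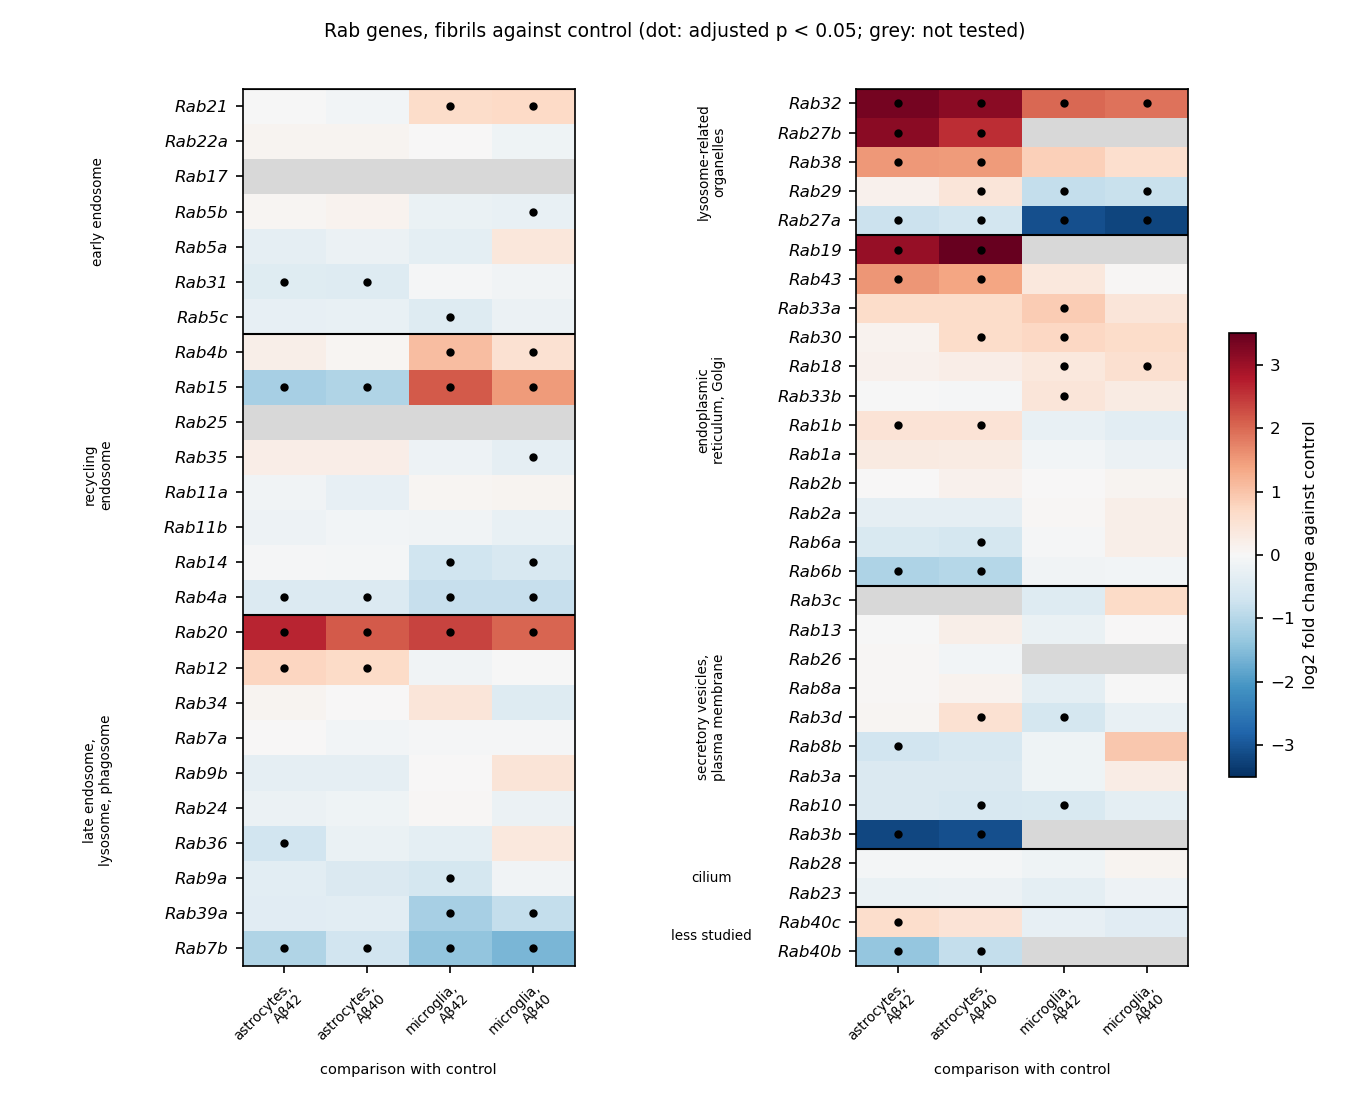
Log2 fold change against control of the Rab genes, in rows by role, for each fibril and cell type in columns, in red where higher and blue where lower, with a dot where the test was passed and grey where it was not run. In astrocytes the column of Aβ42 runs from -3.18 for Rab3b to 3.35 for Rab32.

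The results below follow the roles of the members. Rab1b, Rab5a, Rab5b, Rab5c, Rab6a, Rab8a, Rab9a, Rab10, Rab12, Rab13, Rab30, Rab33a, Rab33b and Rab35 fall outside the rule for naming genes and were chosen after their values were seen.

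Lysosome-related organelles are served by 5 members, Rab27a, Rab27b, Rab29, Rab32 and Rab38. The rise of Rab32 was known when the family and its role groups were chosen. In astrocytes 3 of the 5 rose and 1 fell with Aβ42, and 4 rose and 1 fell with Aβ40, with a median log2 fold change of 1.50 and 1.50. Of all genes in astrocytes, 16.5% rose and 20.4% fell with Aβ42, and 14.9% and 18.4% with Aβ40. In microglia, 1 of the 4 tested rose and 2 fell with each fibril, with medians of 0.01 and -0.09, beside 27.1% and 26.6% of all genes with Aβ42 and 19.6% and 21.4% with Aβ40. Without microglia control replicate 1, or without Aβ42 replicate 1, 2 rose with Aβ42. Rab27b, the close relative of Rab27a, moved the other way in astrocytes, from 1.39, 1.44 and 2.46 CPM in control to 17.4, 16.9 and 19.2 CPM with Aβ42 and 12.3, 11.7 and 12.1 CPM with Aβ40. The 3 groups of Rab27b libraries did not overlap, with Aβ42 highest. The control libraries held 5, 6 and 35 counts of it. Its log2 fold changes were 3.15 ± 0.21 (SE, edgeR adjusted p = 8.94e-07) with Aβ42 and 2.58 ± 0.22 (SE, edgeR adjusted p = 4.78e-06) with Aβ40. In microglia Rab27b was too low to test, with counts of 9, 6 and 9 in control, 3, 17 and 11 with Aβ42 and 6, 7 and 4 with Aβ40.

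Rab38, which shares with Rab32 the exchange factor BLOC-3, had 5.29, 11.7 and 8.79 CPM in control astrocytes, 22.3, 26.7 and 25.2 CPM with Aβ42 and 29.2, 19.8 and 25.2 CPM with Aβ40. All treated astrocyte libraries lay above the controls. Rab38 rose by 1.50 ± 0.24 (SE, edgeR adjusted p = 0.000574) on the log2 scale with Aβ42 and 1.50 ± 0.24 (SE, edgeR adjusted p = 0.000636) with Aβ40. In microglia it had 3.65, 1.74 and 1.98 CPM in control, 1.60, 5.2 and 4.96 CPM with Aβ42 and 4.83, 2.68 and 4.6 CPM with Aβ40, and the groups overlapped. The microglia value with Aβ42 was 0.85 ± 0.34 (SE, edgeR adjusted p = 0.0551), and without Aβ42 replicate 1 it was 0.96 ± 0.27 (SE, edgeR adjusted p = 0.00526), which passed. Rab29, a Golgi and lysosome Rab that recruits the kinase Lrrk2, had 39.6, 32.1 and 38.9 CPM in control microglia, 20.8, 20.1 and 21.4 CPM with Aβ42 and 19.3, 21.9 and 24.4 CPM with Aβ40. Every treated microglia library of Rab29 lay below every control. It fell by 0.83 on the log2 scale with Aβ42 (SE 0.13, edgeR adjusted p = 0.000204) and by 0.77 with Aβ40 (SE 0.14, edgeR adjusted p = 0.000783). In astrocytes the value of Rab29 was 0.15 ± 0.15 (SE, edgeR adjusted p = 0.456) with Aβ42 and 0.43 ± 0.15 (SE, edgeR adjusted p = 0.0435) with Aβ40. The latter passed, and was lost without astrocyte control replicate 1, or astrocyte Aβ42 replicate 1, 2 or 3, or astrocyte Aβ40 replicate 1, 2 or 3, and with library totals, the filter of 10 counts or a fit of the 2 groups alone (edgeR and DESeq2 adjusted p from 0.0181 to 0.125 over its 16 alternatives).

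Late endosomes, lysosomes, phagosomes and autophagosomes are served by 10 members, all tested in both cell types. In astrocytes Rab20 and Rab12 rose with Aβ42 and Rab7b and Rab36 fell. With Aβ40, Rab20 and Rab12 rose and Rab7b fell. In microglia Rab20 rose and Rab7b, Rab9a and Rab39a fell with Aβ42, and Rab20 rose and Rab7b and Rab39a fell with Aβ40. Without Aβ42 replicate 1, Rab34 passed as well, at 0.56 ± 0.12 (SE, edgeR adjusted p = 0.000786) with Aβ42 and -0.44 ± 0.15 (SE, edgeR adjusted p = 0.0216) with Aβ40, in opposite directions. With all libraries Rab34 was at 0.42 ± 0.19 (SE, edgeR adjusted p = 0.0807) and -0.45 ± 0.22 (SE, edgeR adjusted p = 0.121) and did not pass. Rab39a, which acts on phagosomes, had 7.30, 8.31 and 11.3 CPM in control microglia, 5.6, 3.38 and 4.16 CPM with Aβ42 and 4.34, 5.14 and 5.98 CPM with Aβ40. Its treated libraries lay below the controls. Rab39a had a log2 fold change of -1.17 ± 0.23 (SE, edgeR adjusted p = 0.000968) with Aβ42 and -0.82 ± 0.26 (SE, edgeR adjusted p = 0.0249) with Aβ40, and the Aβ40 call was lost without microglia control replicate 3, or microglia Aβ40 replicate 1 or 2 (edgeR and DESeq2 adjusted p from 0.0113 to 0.113 over its 16 alternatives). In astrocytes Rab39a did not pass, at -0.41 ± 0.32 and -0.37 ± 0.31.

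Rab12, which directs receptors to lysosomes, rose in astrocytes by 0.76 ± 0.12 (SE, edgeR adjusted p = 0.000624) on the log2 scale with Aβ42 and 0.67 ± 0.12 (SE, edgeR adjusted p = 0.00159) with Aβ40. Its microglia values were -0.12 ± 0.11 and -0.02 ± 0.12 and did not pass. Rab36 had 44.5, 31.1 and 47.0 CPM in control astrocytes, 28.1, 25.8 and 22.9 CPM with Aβ42 and 29.3, 38.2 and 37.1 CPM with Aβ40. The Aβ42 libraries lay below all controls, whereas the Aβ40 libraries overlapped them. Its log2 fold change with Aβ42 was -0.68 ± 0.18 (SE, edgeR adjusted p = 0.0132), a call lost without astrocyte Aβ42 replicate 3 (edgeR and DESeq2 adjusted p from 0.000309 to 0.0513 over its 16 alternatives). With Aβ40 it was -0.23 ± 0.18 (SE, edgeR adjusted p = 0.354), and without astrocyte control replicate 2 it was -0.39 ± 0.14 (SE, edgeR adjusted p = 0.0367), which passed. Rab9a, which returns receptors from late endosomes to the Golgi, had 90.1, 102 and 97.3 CPM in control microglia, 87.6, 53.4 and 53.8 CPM with Aβ42 and 75.8, 74.7 and 120.4 CPM with Aβ40. Aβ42 replicate 1 lay close to the controls and the other Aβ42 replicates below them. The log2 fold change was -0.62 ± 0.21 (SE, edgeR adjusted p = 0.0253) with all libraries and -0.85 ± 0.14 (SE, edgeR adjusted p = 4.04e-05) without Aβ42 replicate 1. This call of Rab9a was lost without microglia control replicate 1, 2 or 3, or microglia Aβ42 replicate 2 or 3 (edgeR and DESeq2 adjusted p from 4.04e-05 to 0.111 over its 16 alternatives).

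Recycling endosomes are served by 8 members, of which 7 were tested in both cell types. Rab15, known from endosomal recycling in neurons, moved in opposite directions in the cell types. In astrocytes it had 20.9, 12.4 and 18.6 CPM in control, 8.72, 7.99 and 6.37 CPM with Aβ42 and 6.96, 10.003 and 7.97 CPM with Aβ40. In microglia it had 8.01, 6.95 and 3.66 CPM in control, 20.8, 29.3 and 30.2 CPM with Aβ42 and 15.0, 18.1 and 20.2 CPM with Aβ40. Treated and control libraries of Rab15 did not overlap in either cell type. Its log2 fold change in astrocytes was -1.16 ± 0.22 (SE, edgeR adjusted p = 0.00190) with Aβ42 and -1.05 ± 0.22 (SE, edgeR adjusted p = 0.00357) with Aβ40. In microglia it was 2.14 ± 0.24 (SE, edgeR adjusted p = 1.21e-05) and 1.48 ± 0.27 (SE, edgeR adjusted p = 0.000738). Against Aβ40, the Aβ42 value in microglia was 0.66 ± 0.23 (SE, edgeR adjusted p = 0.0584), and without Aβ42 replicate 1 it was 0.77 ± 0.18 (SE, edgeR adjusted p = 0.00207), which passed.

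Rab4a and Rab4b serve fast recycling from early endosomes and went opposite ways in microglia. Rab4b had 38.4, 34.6 and 36.3 CPM in control microglia, 59.977, 80.3 and 85.5 CPM with Aβ42 and 54.1, 54.6 and 49.6 CPM with Aβ40, with no overlap between the 3 groups. Its log2 fold change was 1.07 ± 0.13 (SE, edgeR adjusted p = 3.16e-05) with Aβ42 and 0.54 ± 0.14 (SE, edgeR adjusted p = 0.00832) with Aβ40. Rab4a fell in microglia, at -0.81 ± 0.20 (SE, edgeR adjusted p = 0.00440) and -0.82 ± 0.22 (SE, edgeR adjusted p = 0.00917), and the Aβ40 call was lost without microglia Aβ40 replicate 1 (edgeR and DESeq2 adjusted p from 0.000362 to 0.0564 over its 16 alternatives). In astrocytes Rab4a fell as well, at -0.48 ± 0.14 (SE, edgeR adjusted p = 0.0194) with Aβ42 and -0.48 ± 0.14 (SE, edgeR adjusted p = 0.0226) with Aβ40. The astrocyte Aβ42 call of Rab4a was lost without astrocyte control replicate 1, or astrocyte Aβ42 replicate 1 or 2, and with a fit of the 2 groups alone (edgeR and DESeq2 adjusted p from 0.00657 to 0.0988 over its 16 alternatives). The astrocyte Aβ40 call of Rab4a was lost without astrocyte control replicate 1, or astrocyte Aβ40 replicate 2 or 3, and with a fit of the 2 groups alone (edgeR and DESeq2 adjusted p from 0.00763 to 0.107 over its 16 alternatives). Rab14, which links the Golgi and endosomes and is found on phagosomes, had 161, 171 and 160.3 CPM in control microglia, 109, 96.4 and 99.0 CPM with Aβ42 and 113, 106 and 115 CPM with Aβ40. All treated microglia libraries of Rab14 lay below the controls. Its log2 fold change was -0.70 ± 0.10 (SE, edgeR adjusted p = 7.02e-05) with Aβ42 and -0.56 ± 0.10 (SE, edgeR adjusted p = 0.000544) with Aβ40, while the astrocyte values, -0.03 ± 0.18 and -0.07 ± 0.17, did not pass. Rab35 also passed in microglia with Aβ40, at -0.33 ± 0.11 (SE, edgeR adjusted p = 0.0274), and was lost without microglia control replicate 1 or 3, or microglia Aβ40 replicate 1, 2 or 3 (edgeR and DESeq2 adjusted p from 0.00215 to 0.125 over its 16 alternatives).

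Early endosomes and uptake are served by 7 members, of which 6 were tested in both cell types. In microglia 1 rose and 1 fell with each fibril, beside 27.1% and 26.6% of all genes with Aβ42 and 19.6% and 21.4% with Aβ40. Without Aβ42 replicate 1, 1 rose and 3 fell with Aβ42 (34.6% and 35.7% of all genes), and 2 rose and 2 fell with Aβ40 (26.4% and 27.6%). Rab21, which carries integrins into early endosomes, had 79.0, 78.8 and 77.5 CPM in control microglia, 130.3, 119 and 122 CPM with Aβ42 and 132, 123 and 124 CPM with Aβ40. The treated libraries lay above the controls without overlap. Rab21 rose in microglia by 0.65 ± 0.09 (SE, edgeR adjusted p = 8.80e-05) on the log2 scale with Aβ42 and 0.69 ± 0.09 (SE, edgeR adjusted p = 8.17e-05) with Aβ40, and its astrocyte values were -0.01 ± 0.22 and -0.10 ± 0.22. Without astrocyte control replicate 2, the astrocyte Aβ42 value of Rab21 was 0.36 ± 0.11 (SE, edgeR adjusted p = 0.0197), which passed. Rab31, which carries cargo from the Golgi to endosomes, fell in astrocytes, at -0.42 ± 0.12 (SE, edgeR adjusted p = 0.0157) and -0.44 ± 0.12 (SE, edgeR adjusted p = 0.0127). Its Aβ42 call was lost without astrocyte Aβ42 replicate 1, 2 or 3, and with a fit of the 2 groups alone (edgeR and DESeq2 adjusted p from 0.000325 to 0.0669 over its 16 alternatives). Its Aβ40 call was lost without astrocyte Aβ40 replicate 1 or 3, and with a fit of the 2 groups alone (edgeR and DESeq2 adjusted p from 0.000243 to 0.0606 over its 16 alternatives).

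Of the Rab5 genes, which build early endosomes, Rab5a depended on a single microglia library. Rab5a had 75.6, 82.5 and 89.2 CPM in control microglia, 108, 51.0 and 47.7 CPM with Aβ42 and 101, 97.3 and 127 CPM with Aβ40. Aβ42 replicate 1 was among the Aβ40 libraries, above the controls, and the other Aβ42 libraries were below the controls. With all libraries the log2 fold change of Rab5a with Aβ42 was -0.33 ± 0.25 (SE, edgeR adjusted p = 0.281), and with Aβ40 it was 0.39 ± 0.25 (SE, edgeR adjusted p = 0.246). Without Aβ42 replicate 1 the values were -0.74 ± 0.10 (SE, edgeR adjusted p = 1.10e-05) and 0.37 ± 0.10 (SE, edgeR adjusted p = 0.00473), which passed in opposite directions. Rab5c fell with Aβ42, at -0.44 ± 0.15 (SE, edgeR adjusted p = 0.0235), and its call was lost without microglia control replicate 1 or 3, or microglia Aβ42 replicate 2 or 3, and with a fit of the 2 groups alone (edgeR and DESeq2 adjusted p from 2.90e-05 to 0.101 over its 16 alternatives). Rab5b fell with Aβ40, at -0.27 ± 0.10 (SE, edgeR adjusted p = 0.0450), and was lost without microglia control replicate 1, 2 or 3, or microglia Aβ42 replicate 2 or 3, or microglia Aβ40 replicate 1, 2 or 3, and with DESeq2 size factors (edgeR and DESeq2 adjusted p from 0.00402 to 0.184 over its 16 alternatives).

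The endoplasmic reticulum and Golgi are served by 12 members, all tested in astrocytes, of which 3 rose and 1 fell with Aβ42 and 4 rose and 2 fell with Aβ40, beside 16.5% and 20.4% of all genes with Aβ42 and 14.9% and 18.4% with Aβ40. Without control replicate 3, 3 fell with each fibril, and without any other 1 of the 9 astrocyte libraries 1 fell with Aβ40. Rab43, of the early secretory pathway, had 3.06, 1.68 and 2.46 CPM in control astrocytes, 7.28, 7.78 and 5.76 CPM with Aβ42 and 6.44, 6.95 and 5.51 CPM with Aβ40. Every treated astrocyte library of Rab43 lay above the controls. Its log2 fold change was 1.54 ± 0.24 (SE, edgeR adjusted p = 0.000463) with Aβ42 and 1.39 ± 0.24 (SE, edgeR adjusted p = 0.000973) with Aβ40. In microglia Rab43 had 15.9, 15.5 and 18.9 CPM in control and 11.6, 22.2 and 26.3 CPM with Aβ42, with replicate 1 below and the others above the controls. The microglia value with Aβ42 was 0.36 ± 0.21 (SE, edgeR adjusted p = 0.170), and without replicate 1 it was 0.52 ± 0.13 (SE, edgeR adjusted p = 0.00179), which passed. Rab19 had 0.278, 0.479 and 0.563 CPM in control astrocytes, 5.08, 4.45 and 2.76 CPM with Aβ42 and 6.24, 5.35 and 5.51 CPM with Aβ40. Its counts were 1, 2 and 8 in the controls, 74, 44 and 23 with Aβ42 and 60, 100 and 83 with Aβ40. Rab19 could be tested only through the treated groups, in which it was high, so it is counted among the members that rose but no fold change is given.

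Rab6b, which drives retrograde Golgi transport and is abundant in neurons, had 50.7, 59.6 and 53.5 CPM in control astrocytes, 26.0, 24.3 and 27.1 CPM with Aβ42 and 27.6, 29.3 and 25.3 CPM with Aβ40. All treated libraries lay below the controls. Its log2 fold change was -1.08 ± 0.13 (SE, edgeR adjusted p = 6.83e-05) with Aβ42 and -0.99 ± 0.13 (SE, edgeR adjusted p = 0.000135) with Aβ40, and in microglia the values were -0.12 ± 0.12 and -0.09 ± 0.12, which did not pass. Rab1b, of transport from the endoplasmic reticulum to the Golgi, passed in astrocytes at 0.48 ± 0.17 (SE, edgeR adjusted p = 0.0435) with Aβ42 and 0.48 ± 0.17 (SE, edgeR adjusted p = 0.0451) with Aβ40. Leaving out any 1 of the astrocyte libraries other than control replicate 3 ended both calls of Rab1b, as did library totals, the filter of 10 counts and fits of the 2 groups alone, with edgeR and DESeq2 adjusted p from 0.00436 to 0.142 over its 16 alternatives for Aβ42 and edgeR and DESeq2 adjusted p from 0.00448 to 0.158 over its 16 alternatives for Aβ40. Rab30 rose in astrocytes with Aβ40, at 0.65 ± 0.17 (SE, edgeR adjusted p = 0.0132). Rab6a fell there, at -0.61 ± 0.21 (SE, edgeR adjusted p = 0.0433), and was lost without astrocyte control replicate 1 or 2, or astrocyte Aβ42 replicate 1, 2 or 3, or astrocyte Aβ40 replicate 1, 2 or 3, and with a fit of the 2 groups alone (edgeR and DESeq2 adjusted p from 0.00489 to 0.143 over its 16 alternatives).

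In microglia 4 of the 11 tested members of this group rose with Aβ42 and 1 with Aβ40, where 27.1% and 19.6% of all genes rose. Without Aβ42 replicate 1, 6 of 12 rose and 1 fell with Aβ42 (34.6% and 35.7% of all genes), and 4 rose and 2 fell with Aβ40 (26.4% and 27.6%). Both counts of members that rose include Rab19, whose counts were 4, 2 and 0 in control microglia, 5, 42 and 32 with Aβ42 and 14, 7 and 2 with Aβ40, so it could be tested only through treated libraries. Without control replicate 1 the number that rose with Aβ42 was 1, and without control replicate 3 it was 2. Without control replicate 2 or Aβ40 replicate 2 or 3, 2 rose with Aβ40. Rab18, of the endoplasmic reticulum and lipid droplets, had 74.0, 93.7 and 72.3 CPM in control microglia, 108, 101 and 103 CPM with Aβ42 and 105, 113 and 134 CPM with Aβ40. Its treated libraries lay above the controls. The log2 fold change was 0.38 ± 0.13 (SE, edgeR adjusted p = 0.0237) with Aβ42 and 0.55 ± 0.13 (SE, edgeR adjusted p = 0.00449) with Aβ40, and the Aβ42 call was lost without microglia control replicate 1 or 3, or microglia Aβ42 replicate 3 (edgeR and DESeq2 adjusted p from 0.00725 to 0.0911 over its 16 alternatives). Rab30 rose with Aβ42, at 0.73 ± 0.22 (SE, edgeR adjusted p = 0.0139), and was lost without microglia control replicate 1 (edgeR and DESeq2 adjusted p from 0.00721 to 0.0605 over its 16 alternatives). Rab33a, of Golgi and autophagosome traffic, rose by 0.88 ± 0.20 (SE, edgeR adjusted p = 0.00303) on the log2 scale. Rab33b rose by 0.42 ± 0.15 (SE, edgeR adjusted p = 0.0361), and was lost without microglia control replicate 1, 2 or 3, or microglia Aβ42 replicate 2, or microglia Aβ40 replicate 2 or 3, and with a fit of the 2 groups alone (edgeR and DESeq2 adjusted p from 0.0126 to 0.0851 over its 16 alternatives).

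Secretory vesicles and delivery to the plasma membrane are served by 9 members, with 8 tested in astrocytes and 7 in microglia. Rab3b, of regulated exocytosis, fell in astrocytes, from 85.7, 75.2 and 64.3 CPM in control to 9.27, 7.08 and 8.29 CPM with Aβ42 and 9.77, 8.93 and 8.17 CPM with Aβ40. Treated and control libraries were far apart, and those of the fibrils overlapped. The log2 fold change was -3.18 ± 0.17 (SE, edgeR adjusted p = 1.61e-07) with Aβ42, 9.05-fold lower, and -3.06 ± 0.17 (SE, edgeR adjusted p = 2.06e-07) with Aβ40. In microglia Rab3b had counts of 5, 1 and 4 in control, 3, 16 and 20 with Aβ42 and 3, 4 and 2 with Aβ40 and could not be tested. Markers of neurons moved in the same astrocyte libraries. Their sum over 6 genes was 558, 541 and 526 CPM in control, 267, 256 and 256 CPM with Aβ42 and 365, 353 and 356 CPM with Aβ40, 5 of the 6 fell with either fibril, none was at the floor, and Stmn2 was the most abundant, at 398 CPM in control. The part of neuronal RNA in the fall of Rab3b, Rab6b and Rab15 in astrocytes was not tested.

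Rab8b, which carries cargo from the Golgi to the plasma membrane, depended on single libraries. In microglia it had 137, 136 and 166 CPM in control, 265, 70.5 and 81.5 CPM with Aβ42 and 243, 258 and 349 CPM with Aβ40. Aβ42 replicate 1 lay among the Aβ40 libraries, above the controls, and the other Aβ42 libraries lay below the controls. With all libraries the log2 fold change of Rab8b in microglia was -0.14 ± 0.39 (SE, edgeR adjusted p = 0.782) with Aβ42 and 0.95 ± 0.39 (SE, edgeR adjusted p = 0.0732) with Aβ40. Without that library the values were -0.95 ± 0.14 (SE, edgeR adjusted p = 1.24e-05) and 0.93 ± 0.12 (SE, edgeR adjusted p = 7.70e-06), which passed in opposite directions. In astrocytes Rab8b fell with Aβ42, at -0.68 ± 0.22 (SE, edgeR adjusted p = 0.0316), and was lost without astrocyte control replicate 1 or 2, or astrocyte Aβ42 replicate 2 or 3, and with a fit of the 2 groups alone (edgeR and DESeq2 adjusted p from 0.0140 to 0.113 over its 16 alternatives). Without microglia Aβ42 replicate 1, 6 of 8 tested members of the group fell with Aβ42 in microglia, with a median log2 fold change of -0.52, against -0.35 over 7 members with all libraries. In that fit 34.6% of all genes rose and 35.7% fell. Besides Rab8b these were Rab3a (-0.24 ± 0.09), Rab3d (-0.58 ± 0.22), Rab8a (-0.55 ± 0.10), Rab10 (-0.80 ± 0.08) and Rab13 (-0.30 ± 0.10).

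With all libraries Rab3d and Rab10 fell in microglia with Aβ42. Rab3d, of secretory granules, had a log2 fold change of -0.61 ± 0.22 (SE, edgeR adjusted p = 0.0317) and was lost without microglia control replicate 1 or 2, or microglia Aβ42 replicate 3, and with the DESeq2 Wald test or a fit of the 2 groups alone (edgeR and DESeq2 adjusted p from 0.0247 to 0.161 over its 15 alternatives). Rab10, of endosomal and exocytic traffic, had -0.55 ± 0.16 (SE, edgeR adjusted p = 0.0120) and was lost without microglia Aβ42 replicate 2 or 3 (edgeR and DESeq2 adjusted p from 1.78e-07 to 0.0573 over its 16 alternatives). In astrocytes Rab3d rose with Aβ40, at 0.54 ± 0.18 (SE, edgeR adjusted p = 0.0367), and was lost without astrocyte control replicate 1, or astrocyte Aβ42 replicate 2, or astrocyte Aβ40 replicate 1, 2 or 3, and with library totals or a fit of the 2 groups alone (edgeR and DESeq2 adjusted p from 0.00848 to 0.106 over its 16 alternatives). Rab10 fell there, at -0.57 ± 0.19 (SE, edgeR adjusted p = 0.0384), and was lost without astrocyte control replicate 1 or 2, or astrocyte Aβ42 replicate 1, 2 or 3, or astrocyte Aβ40 replicate 2 or 3, and with a fit of the 2 groups alone (edgeR and DESeq2 adjusted p from 0.00607 to 0.146 over its 16 alternatives). Rab26, of secretory granules, had 6.12, 5.27 and 7.25 CPM in control astrocytes, 6.32, 6.98 and 6.49 CPM with Aβ42 and 5.4, 5.56 and 6.97 CPM with Aβ40. Its groups overlapped, at 0.04 ± 0.19 and -0.09 ± 0.19 on the log2 scale.

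The cilium members did not pass in the comparisons with control when all libraries were used. Rab23, a regulator of Hedgehog signalling at the cilium, had log2 fold changes of -0.24 ± 0.25 and -0.20 ± 0.25 in astrocytes and -0.33 ± 0.14 and -0.18 ± 0.15 in microglia, for Aβ42 and Aβ40. Without microglia Aβ42 replicate 1, its Aβ42 value in microglia was -0.41 ± 0.12 (SE, edgeR adjusted p = 0.00526), which passed. Rab28 had -0.06 ± 0.14 and -0.06 ± 0.14 in astrocytes and -0.16 ± 0.11 and 0.10 ± 0.12 in microglia. Among the less studied members, Rab40b and Rab40c belong to the subfamily with a SOCS box that binds ubiquitin ligases. Rab40b had 3.9, 3.59 and 2.74 CPM in control astrocytes, 1.58, 1.31 and 0.721 CPM with Aβ42 and 1.35, 1.87 and 2.06 CPM with Aβ40, and its treated libraries lay below the controls. It fell by 1.36 ± 0.32 (SE, edgeR adjusted p = 0.00639) on the log2 scale with Aβ42. With Aβ40 its value was -0.84 ± 0.29 (SE, edgeR adjusted p = 0.0478), a call lost without astrocyte control replicate 1 or 2, or astrocyte Aβ42 replicate 1 or 2, or astrocyte Aβ40 replicate 1, 2 or 3, and with the DESeq2 Wald test, no filter or a fit of the 2 groups alone (edgeR and DESeq2 adjusted p from 0.0344 to 0.127 over its 15 alternatives). Rab40c rose in astrocytes with Aβ42, at 0.60 ± 0.21 (SE, edgeR adjusted p = 0.0467), and was lost on leaving out any 1 astrocyte library other than control replicate 3, and with library totals, the filter of 10 counts or a fit of the 2 groups alone (edgeR and DESeq2 adjusted p from 0.00462 to 0.108 over its 16 alternatives).

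Aβ42 was set against Aβ40 to ask whether the fibrils differed. In astrocytes no Rab gene passed edgeR's test, 0 of 52, where 0.0599% of all genes were higher and 0.0257% lower with Aβ42. At an unadjusted p under 0.05 there were 6 of 52, and DESeq2 called 0. Without astrocyte control replicate 2, 1 Rab gene passed (0.961% of all genes higher and 0.911% lower). This was Rab27b, at 0.57 ± 0.13 (SE, edgeR adjusted p = 0.0470). The value of Rab32 in astrocytes was 0.19 ± 0.15 (SE, edgeR adjusted p = 1.0), and a p over the threshold does not show that the fibrils acted alike.

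In microglia 2 Rab genes were higher with Aβ42 than with Aβ40 and 2 were lower, where 11.3% and 9.01% of all genes passed. Rab34, which positions lysosomes, had 21.2, 35.6 and 34.8 CPM with Aβ42 and 17.6, 20.8 and 12 CPM with Aβ40, and differed by 0.88 ± 0.21 (SE, edgeR adjusted p = 0.0234) on the log2 scale. All Aβ42 libraries lay above the Aβ40 libraries, with replicate 1 nearest to them. Rab4b differed by 0.53 ± 0.13 (SE, edgeR adjusted p = 0.0260). Rab3a, of synaptic vesicle exocytosis, had 58.4, 49.3 and 44.6 CPM with Aβ42 and 65.6, 70.7 and 60.7 CPM with Aβ40, a difference of -0.40 ± 0.12 (SE, edgeR adjusted p = 0.0411) with no overlap. Rab3c, another Rab of exocytosis, differed by -1.12 ± 0.24 (SE, edgeR adjusted p = 0.0176). The 4 calls were lost, and the count was 0, on leaving out Aβ42 replicate 2 or 3 or Aβ40 replicate 1, 2 or 3, and all 4 were lost in a fit of the 2 groups alone. Over the alternatives, the adjusted p of edgeR or DESeq2 reached 0.113 for Rab34, 0.132 for Rab4b, 0.195 for Rab3a and 0.106 for Rab3c. Rab3a was also lost without microglia control replicate 1, 2 or 3.

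Without microglia Aβ42 replicate 1, 10 Rab genes were higher and 15 lower with Aβ42 than with Aβ40, where 27.1% and 26.8% of 11155 genes passed. That library was set apart because it correlated better with the Aβ40 libraries, so leaving it out favours a larger difference between the fibrils. Aβ42 replicates 2 and 3 had 22274367 and 17687416 counts on genes, against 4104702, 4425805 and 2271834 with Aβ40. Depth and fibril therefore cannot be told apart in the fit without replicate 1. Rab8b then differed by -1.89 ± 0.14 (SE, edgeR adjusted p = 1.41e-07) and Rab5a by -1.12 ± 0.11 (SE, edgeR adjusted p = 1.10e-06). Among members of secretory vesicles, 6 of 8 were lower with Aβ42 and 1 was higher, with a median of -0.48. The higher one was Rab26, with counts of 3, 31 and 42 in Aβ42 replicates 1, 2 and 3, of which replicate 1 was left out, and 3, 4 and 0 with Aβ40, and no fold change is given so near the floor. Rab32 did not pass in microglia, at 0.09 ± 0.09 (SE, edgeR adjusted p = 0.465) with all libraries and 0.14 ± 0.07 (SE, edgeR adjusted p = 0.128) without that replicate. The label of this library cannot be checked from the counts alone, and the cause of its position was not tested.

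**Figure D3:**
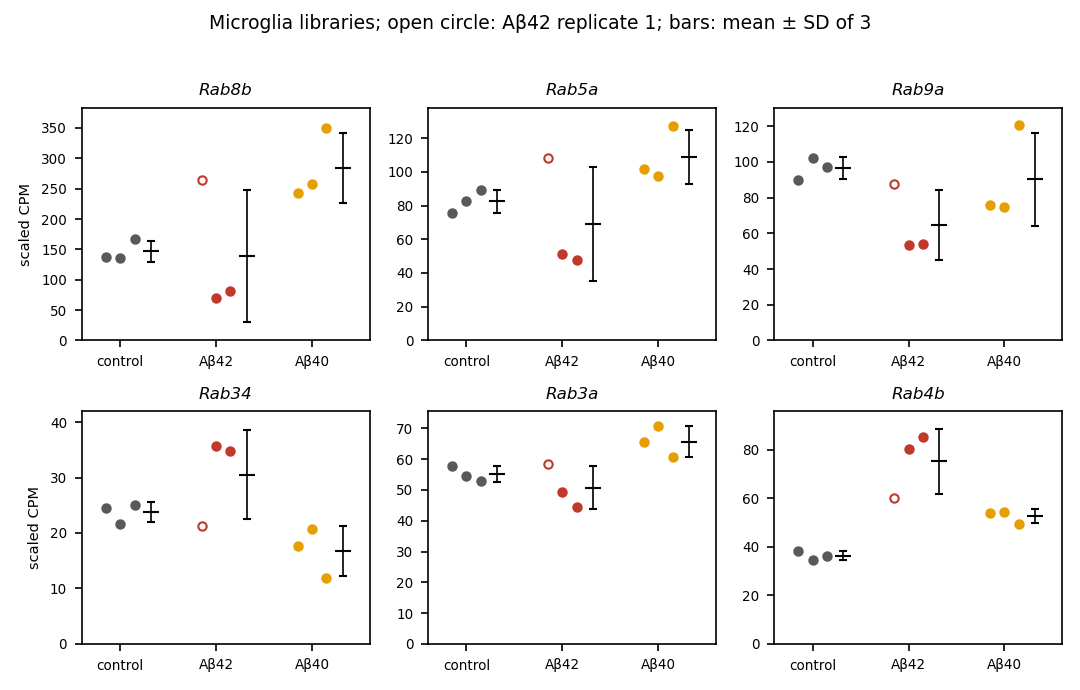
Scaled CPM in each microglia library (points) of Rab8b, Rab5a, Rab9a, Rab34, Rab3a and Rab4b, with the mean and SD of 3 libraries and Aβ42 replicate 1 as an open circle. For Rab8b this library stood at 265 CPM and the other Aβ42 libraries at 70.5 and 81.5 CPM, with the Aβ40 libraries at 243, 258 and 349 CPM.

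Untreated microglia and astrocytes differed in 39 of the 53 Rab genes tested in the fit of all 18 libraries. With TMM scaling 25 were higher in microglia and 14 lower, where 34.2% of all 11581 genes were higher and 34.5% lower, but scaling by library totals gave 19 higher and 21 lower. Rab26, Rab40b and Rab3b passed as lower and were too low to test in microglia alone, and Rab3c passed as higher and was too low to test in astrocytes alone. The call of Rab40b was lost without microglia control replicate 1 or 3 (edgeR and DESeq2 adjusted p from 0.00352 to 0.108 over its 24 alternatives). Of the 47 members tested in each cell type alone, 24 were higher and 11 lower. That scaling moved the median of all genes by -0.28 on the log2 scale and the share of calls that were higher from 49.8% to 37.4%. The median log2 difference of the Rab genes was 0.27, against 0.00 over all genes. Levels of controls are given below as mean ± SD over 3 libraries, scaled over all 18. Cell type cannot be told apart from anything else that differed between astrocyte and microglia libraries.

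The members named next, which come from several role groups, were higher in microglia. Rab7b had 21.5 ± 0.990 CPM in astrocytes and 139 ± 17.1 CPM in microglia, a log2 difference of 2.68 ± 0.14 (SE, edgeR adjusted p = 2.11e-12). Rab27a had 8.10 ± 0.667 CPM in astrocytes and 37.5 ± 3.72 CPM in microglia, a difference of 2.24 ± 0.15 (SE, edgeR adjusted p = 1.39e-10). The SDs of both genes were small beside these gaps. Rab32 had 27.1 ± 3.76 CPM in astrocytes and 82.0 ± 0.822 CPM in microglia, at 1.58 ± 0.14 (SE, edgeR adjusted p = 6.16e-09), and Rab20 was higher by 1.43 ± 0.19 (SE, edgeR adjusted p = 2.02e-06) on the log2 scale. Rab14 had 66.6 ± 15.6 CPM in astrocytes and 182 ± 7.83 CPM in microglia, at 1.46 ± 0.15 (SE, edgeR adjusted p = 3.79e-08). These genes had the same direction and passed with library totals and with DESeq2 size factors. Rab43 had 2.24 ± 0.654 CPM in astrocytes and 18.6 ± 1.99 CPM in microglia, a log2 difference of 3.05 ± 0.28 (SE, edgeR adjusted p = 1.11e-08). Rab8b was higher in microglia by 2.47 ± 0.36 (SE, edgeR adjusted p = 5.90e-06) and Rab39a by 1.33 ± 0.28 (SE, edgeR adjusted p = 0.000344). Rab3c had 0.566 ± 0.528 CPM in astrocytes and 2.88 ± 0.251 CPM in microglia, with counts of 4, 0 and 10 in control astrocytes, and no log2 difference is given.

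Rab3b was near the floor in microglia and well above it in astrocytes. It had 70.2 ± 10.6 CPM in astrocytes and 0.515 ± 0.259 CPM in microglia, with counts of 5, 1 and 4 in control microglia, so no log2 difference is given. Rab36 had 38.2 ± 7.82 CPM in astrocytes and 3.74 ± 0.901 CPM in microglia, a log2 difference of -3.36 ± 0.22 (SE, edgeR adjusted p = 5.43e-11). Rab3d had 29.2 ± 6.09 CPM in astrocytes and 6.54 ± 0.852 CPM in microglia, at -2.18 ± 0.20 (SE, edgeR adjusted p = 9.43e-09). In each of these the groups were several SDs apart. Rab26 was also lower in microglia, at -1.52 ± 0.30 (SE, edgeR adjusted p = 0.000158), as were Rab38, at -1.50 ± 0.35 (SE, edgeR adjusted p = 0.000826), and Rab15, at -1.22 ± 0.26 (SE, edgeR adjusted p = 0.000379). Rab11b, of the recycling endosome, had 465 ± 99.2 CPM in astrocytes and 281 ± 17.7 CPM in microglia, at -0.72 ± 0.13 (SE, edgeR adjusted p = 4.33e-05). Both cilium members were lower in microglia, Rab23 at -0.84 ± 0.22 (SE, edgeR adjusted p = 0.00212) and Rab28 at -0.44 ± 0.13 (SE, edgeR adjusted p = 0.00579). Rab27b did not pass, at -0.49 ± 0.29 (SE, edgeR adjusted p = 0.151).

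**Figure D4:**
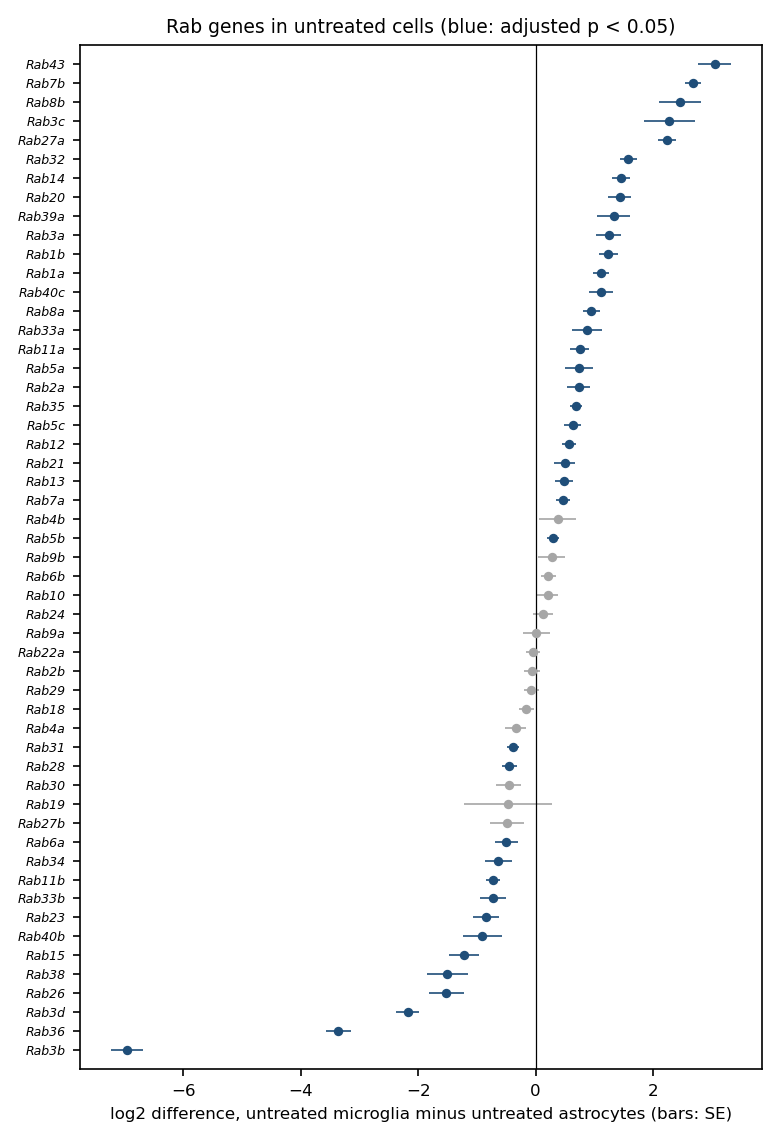
Log2 difference of untreated microglia minus untreated astrocytes for each Rab gene tested, with SE as bars and blue where the test was passed, in the fit of 18 libraries with TMM scaling. The highest value is 3.05 for Rab43, and the lowest is that of Rab3b, which was near the floor in microglia, with 25 members higher and 14 lower in microglia with this scaling, and 19 higher and 21 lower with library totals.

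The test of the difference in response, microglia minus astrocytes, was passed with Aβ42 by 16 of 53 Rab genes, 6 higher and 10 lower, where 19.3% and 17.9% of all 11581 genes passed. With Aβ40, 6 were higher and 12 lower, beside 16.0% and 16.5%. Without microglia Aβ42 replicate 1, 5 were higher and 10 lower with Aβ42 (22.1% and 20.1% of 11714 genes), and without that library and astrocyte control replicate 2, 8 were higher and 17 lower (29.0% and 26.7% of 11725 genes). Of the 47 members that could also be tested in each cell type alone, 4 were higher and 9 lower with Aβ42, and 5 higher and 11 lower with Aβ40. The others that passed were Rab27b and Rab3b with both fibrils and Rab40b with Aβ42, which were too low to test in microglia, so these calls rest in part on low counts there. Of the 4 members of lysosome-related organelles tested in both cell types, 3 were lower in this test with each fibril. Rab27a had -2.32 ± 0.23 (SE, edgeR adjusted p = 2.15e-07) with Aβ42, Rab32 -1.35 ± 0.19 (SE, edgeR adjusted p = 1.66e-05) and Rab29 -0.98 ± 0.19 (SE, edgeR adjusted p = 0.000499). Rab38 did not pass, at -0.66 ± 0.45 (SE, edgeR adjusted p = 0.272).

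Rab32 rose by less, on the log2 scale, in microglia. Its difference in response was -1.26 ± 0.19 (SE, edgeR adjusted p = 4.00e-05) with Aβ40. Rab20 did not pass, at -0.32 ± 0.24 (SE, edgeR adjusted p = 0.311) with Aβ42 and -0.14 ± 0.24 (SE, edgeR adjusted p = 0.707) with Aβ40. Rab15, which rose in microglia and fell in astrocytes, had 3.29 ± 0.35 (SE, edgeR adjusted p = 6.09e-07) with Aβ42 and 2.52 ± 0.36 (SE, edgeR adjusted p = 2.48e-05) with Aβ40. Rab6b, which fell in astrocytes, had 0.95 ± 0.18 (SE, edgeR adjusted p = 0.000402) and 0.89 ± 0.18 (SE, edgeR adjusted p = 0.000969). Rab43, which rose in astrocytes, had -1.20 ± 0.36 (SE, edgeR adjusted p = 0.0138) and -1.38 ± 0.37 (SE, edgeR adjusted p = 0.00739). Rab7b passed with Aβ40, at -0.94 ± 0.19 (SE, edgeR adjusted p = 0.000836), and not with Aβ42, at -0.35 ± 0.19 (SE, edgeR adjusted p = 0.164).

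Further members passed this test. Rab12 had -0.89 ± 0.16 (SE, edgeR adjusted p = 0.000260) with Aβ42, Rab14 -0.68 ± 0.20 (SE, edgeR adjusted p = 0.0128) and Rab40c -0.89 ± 0.28 (SE, edgeR adjusted p = 0.0174). Rab21 had 0.65 ± 0.24 (SE, edgeR adjusted p = 0.0411) with Aβ42, a call lost without astrocyte control replicate 2, or astrocyte Aβ42 replicate 1, 2 or 3, or microglia control replicate 1, 2 or 3, or microglia Aβ42 replicate 1, 2 or 3, or microglia Aβ40 replicate 1, 2 or 3, and with both libraries that stood apart left out (edgeR and DESeq2 adjusted p from 0.00869 to 0.0952 over its 25 alternatives). With Aβ40 Rab21 had 0.77 ± 0.24 (SE, edgeR adjusted p = 0.0209), a call lost without microglia Aβ40 replicate 1 (edgeR and DESeq2 adjusted p from 0.00400 to 0.0513 over its 25 alternatives). Rab31 had 0.37 ± 0.14 (SE, edgeR adjusted p = 0.0460) with Aβ42, a call lost without astrocyte control replicate 1 or 3, or astrocyte Aβ42 replicate 1, 2 or 3, or microglia control replicate 1 or 2, or microglia Aβ42 replicate 2 or 3, or microglia Aβ40 replicate 1, 2 or 3, and with no filter (edgeR and DESeq2 adjusted p from 0.00218 to 0.0994 over its 25 alternatives). Rab8b passed with Aβ40, at 1.48 ± 0.49 (SE, edgeR adjusted p = 0.0261), and was lost without astrocyte control replicate 2, or astrocyte Aβ40 replicate 1 or 3, or microglia control replicate 1 or 2, or microglia Aβ40 replicate 3 (edgeR and DESeq2 adjusted p from 0.000148 to 0.0687 over its 25 alternatives).

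**Figure D5:**
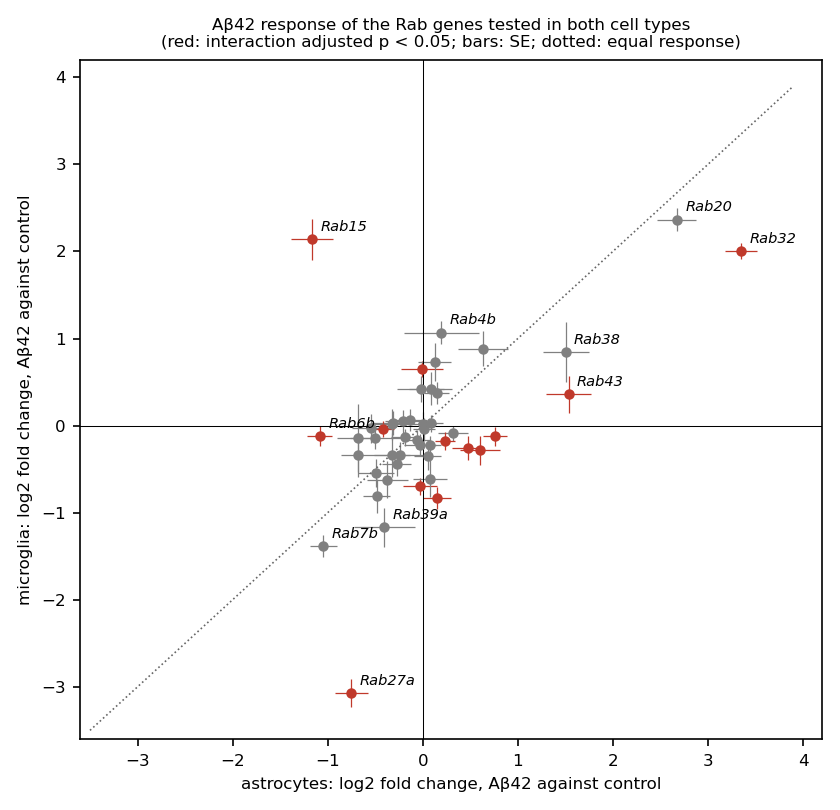
Log2 fold change of each Rab gene in astrocytes (horizontal) and microglia (vertical) with Aβ42, with SE as bars, for the members tested in both, in red where the test of the difference in response was passed. Rab32 with Aβ42 lies at 3.35 in astrocytes and 2.01 in microglia, and Rab15 at -1.16 and 2.14.

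Of 24 Rab exchange factors tested in microglia, 2 rose and 17 fell with Aβ42, and 1 rose and 17 fell with Aβ40, with a median log2 fold change of -0.49 and -0.49, against 0.01 and 0.01 over all genes. Of all genes, 27.1% rose and 26.6% fell with Aβ42, and 19.6% and 21.4% with Aβ40. In astrocytes, of 25 tested, 2 rose and 1 fell with Aβ42, beside 16.5% and 20.4% of all genes, and 3 rose and 2 fell with Aβ40, beside 14.9% and 18.4%, with medians of 0.15 and 0.12. The astrocyte counts moved with single libraries. Without control replicate 2, 4 rose and 3 fell with Aβ42, beside 22.1% and 24.8% of all genes in that fit. Without control replicate 3, 6 rose with each fibril, and over the libraries left out between 1 and 6 rose and between 1 and 3 fell with each fibril. The difference in response was lower in microglia for 14 of 25 with each fibril, beside 17.9% and 16.5% of all genes. Rin2, an exchange factor of Rab5, had -2.95 ± 0.11 (SE, edgeR adjusted p = 1.06e-09) with Aβ42 and -2.84 ± 0.11 (SE, edgeR adjusted p = 1.66e-09) with Aβ40 in microglia. Rab3il1, an exchange factor of Rab8 and Rab3, had -3.74 ± 0.20 (SE, edgeR adjusted p = 1.70e-08) and -3.94 ± 0.23 (SE, edgeR adjusted p = 4.64e-08). Dennd2c had -3.31 ± 0.18 (SE, edgeR adjusted p = 2.11e-08) and -3.18 ± 0.21 (SE, edgeR adjusted p = 1.40e-07). Those that rose were Rabgef1, a Rab5 exchange factor, with both fibrils, at 0.49 ± 0.11 (SE, edgeR adjusted p = 0.00262) and 0.50 ± 0.11 (SE, edgeR adjusted p = 0.00350), and Mon1a, of the Rab7 exchange factor, with Aβ42, at 0.63 ± 0.14 (SE, edgeR adjusted p = 0.00261). In astrocytes Hps1, a subunit of the BLOC-3 exchange factor of Rab32 and Rab38, had 1.02 ± 0.30 (SE, edgeR adjusted p = 0.0195) with Aβ42 and 0.96 ± 0.29 (SE, edgeR adjusted p = 0.0271) with Aβ40. The Aβ42 call of Hps1 was lost without astrocyte Aβ42 replicate 1 or 2 (edgeR and DESeq2 adjusted p from 0.00172 to 0.0586 over its 16 alternatives). Its Aβ40 call was lost without astrocyte Aβ40 replicate 2 or 3, and with a fit of the 2 groups alone (edgeR and DESeq2 adjusted p from 0.00316 to 0.0788 over its 16 alternatives). In microglia, where Rab32 also rose, Hps1 went the other way and fell with both fibrils. Its difference in response passed as lower in microglia with each fibril. Dennd2d is counted among those that rose in astrocytes, with counts of 2, 1 and 3 in control, 22, 11 and 10 with Aβ42 and 18, 27 and 19 with Aβ40, and no fold change is given since its control libraries were at or under the floor. Dennd1c is counted among those that fell in astrocytes with each fibril, and no fold change is given since its level with the fibrils was near the floor. It had 4.45, 2.63 and 4.22 CPM in control astrocytes and 71.6, 62.8 and 73.4 CPM in control microglia, was higher in untreated microglia, and fell in the astrocyte libraries in which microglia markers fell (medians of -3.38 and -3.16 over the 14 genes). The part of microglial RNA in its fall was not tested.

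The other partners of Rab proteins moved in both directions. Of 23 GTPase-activating proteins tested in each cell type, 7 rose and 2 fell in astrocytes with Aβ42, 6 rose and 1 fell with Aβ40, 6 rose and 10 fell in microglia with Aβ42, and 5 rose and 8 fell with Aβ40. The shares of all genes are those given for the exchange factors. Without astrocyte Aβ40 replicate 3, 3 rose in astrocytes with Aβ40, and over the astrocyte libraries left out 1 or 2 fell there with each fibril. Tbc1d22b rose in both cell types with both fibrils, by 1.29 ± 0.14 (SE, edgeR adjusted p = 3.15e-05) in astrocytes with Aβ42. Tbc1d8 fell in microglia with Aβ42, at -1.60 ± 0.14 (SE, edgeR adjusted p = 1.60e-06). Tbc1d2, a GTPase-activating protein of Rab7, rose in microglia by 1.55 ± 0.17 (SE, edgeR adjusted p = 9.17e-06) with Aβ42 and 0.74 ± 0.18 (SE, edgeR adjusted p = 0.00568) with Aβ40. It also rose in astrocytes with Aβ42. Of the effectors and partners, 10 of 49 rose and 8 fell in astrocytes with Aβ42, and 9 rose and 7 fell with Aβ40, of which the latter was 4 without Aβ40 replicate 1 or 3. In microglia 3 of 46 rose and 21 fell with Aβ42, and 6 rose and 14 fell with Aβ40, with medians of -0.34 and -0.11. Without Aβ42 replicate 1, 8 of 48 rose and 29 fell with Aβ42, beside 34.6% and 35.7% of all genes, and 10 rose and 15 fell with Aβ40, beside 26.4% and 27.6%. Without microglia control replicate 2, 5 rose with Aβ42, and without control replicate 2 or 3, 9 fell with Aβ40. Optn, a Rab8 effector in autophagy, rose in both cell types, at 1.22 ± 0.18 (SE, edgeR adjusted p = 0.000251) and 1.20 ± 0.18 (SE, edgeR adjusted p = 0.000326) in astrocytes and 1.18 ± 0.19 (SE, edgeR adjusted p = 0.000231) and 1.44 ± 0.19 (SE, edgeR adjusted p = 6.16e-05) in microglia. Rab11fip1, a Rab11 effector, rose in microglia, at 1.30 ± 0.11 (SE, edgeR adjusted p = 1.33e-06) and 1.10 ± 0.12 (SE, edgeR adjusted p = 8.88e-06). Rufy1, an effector of Rab4 and Rab14, fell in microglia, at -1.58 ± 0.10 (SE, edgeR adjusted p = 6.98e-08) and -1.75 ± 0.10 (SE, edgeR adjusted p = 4.80e-08). Lrrk1 and Mical1 of this list fell by more. Lrrk1 had -2.78 ± 0.17 (SE, edgeR adjusted p = 4.79e-08) and -2.41 ± 0.18 (SE, edgeR adjusted p = 4.41e-07) in microglia, and rose in astrocytes with both fibrils. Mical1 had -1.81 ± 0.12 (SE, edgeR adjusted p = 1.31e-07) and -2.47 ± 0.14 (SE, edgeR adjusted p = 4.04e-08) in microglia. Myrip, which ties Rab27a to myosin, fell in astrocytes, at -1.39 ± 0.21 (SE, edgeR adjusted p = 0.000375) and -1.13 ± 0.20 (SE, edgeR adjusted p = 0.00126). It also fell in microglia with Aβ40. Of 7 genes of GDP dissociation inhibition and prenylation, Chml passed in astrocytes with Aβ40, at 0.86 ± 0.29 (SE, edgeR adjusted p = 0.0400), and was lost without astrocyte control replicate 1 or 3, or astrocyte Aβ42 replicate 1, 2 or 3, or astrocyte Aβ40 replicate 1, 2 or 3, and with library totals or a fit of the 2 groups alone (edgeR and DESeq2 adjusted p from 0.00706 to 0.143 over its 15 alternatives). Without microglia Aβ42 replicate 1, 2 of these 7 genes rose and 2 fell in microglia with Aβ42, and 1 rose and 2 fell with Aβ40. Without astrocyte control replicate 2, 1 rose and 1 fell in astrocytes with each fibril, beside 22.1% and 24.8% of all genes with Aβ42 and 19.6% and 22.2% with Aβ40.

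Marker genes were read as a check of the labels. In untreated cells all 10 astrocyte markers were lower and 13 of 14 microglia markers higher in microglia libraries. The summed microglia markers stood at 8018 ± 721 CPM (SD, n = 3) in control microglia, 2626 ± 204 CPM with Aβ42 and 2673 ± 51.9 CPM with Aβ40, and 10 and 13 of the 14 fell. Itgam rose with each fibril and was the most abundant of them in treated microglia, at 693 CPM with Aβ42 and 766 CPM with Aβ40. The summed astrocyte markers stood at 9831 ± 1060.2, 5968 ± 115 and 6665 ± 144 CPM in astrocytes, with 7 and 6 of 10 lower and 2 and 3 higher, and at 275 ± 17.9, 271 ± 21.2 and 257 ± 14.7 CPM in microglia. Oligodendrocyte lineage markers summed to 2209 ± 436, 1330.3 ± 52.3 and 1358 ± 10.8 CPM in astrocytes and 2034 ± 115, 2488 ± 328 and 2380 ± 249.6 CPM in microglia. Neuron markers in microglia summed to 331 ± 7.49, 438 ± 45.0 and 463 ± 12.2 CPM. Fibroblast markers summed to 230.3 ± 18, 217 ± 26.4 and 248 ± 23.8 CPM in astrocytes and 69 ± 8.10, 154 ± 14.3 and 124 ± 3.40 CPM in microglia. Endothelial markers summed to 6.76 ± 1.48, 6.16 ± 0.967 and 4.15 ± 0.438 CPM in astrocytes and 167 ± 5.91, 46.5 ± 12.1 and 91.3 ± 11.7 CPM in microglia. The part of these cell types in the Rab results was not tested.

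Reads of some members may not have been told apart from those of other genes. In RefSeq's GRCr8 annotation 16 of the 55 members overlap another gene, 5 of them a protein-coding one. These are Rab3a with Mpv17l2, Rab40c with Mettl26, Rab5a with Pp2d1, Rab6a with Mrpl48 and Plekhb1, and Rab9a with Trappc2, and their values are uncertain to that extent. Counts of close paralogs, such as Rab5a, Rab5b and Rab5c or Rab27a and Rab27b, are uncertain where reads could be split between them.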

How the data were processed

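Polyadenylated RNA of 18 rat libraries, 9 of astrocytes and 9 of microglia, was sequenced from a stranded mRNA kit. The authors deposited counts per gene symbol, one table a library. The submitters' processing notes name STAR, Salmon and DESeq2 and the genome build rn5, with no versions, and the strand used in counting is not given in the sources used here. Between 26.0% and 34.2% of counts in astrocyte libraries and 21.7% and 24.5% in microglia libraries were on no single gene and were left out. The deepest library had 5.18 times the counts of the shallowest in astrocytes and 9.80 times in microglia.

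Members, role groups, partner lists and marker lists were chosen with earlier results of these data known. Counts were fitted with edgeR 4.0.16 (limma 3.58.1, R 4.3.3) by quasi-likelihood with TMM scaling and filterByExpr, in 1 fit for each cell type and 1 fit of all 18 libraries (11581 genes) for differences between cell types. Log2 fold changes are given with SE, computed from the F statistic, and p-values were adjusted by Benjamini-Hochberg over all genes tested. The fit of each cell type was tested on simulated data, and the fit of all 18 libraries was not. No set tests were run. The values of 1 marker gene are not reported here.

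Named Rab genes are Rab32, up to 5 with the smallest p in each direction of each comparison, those that changed 2-fold or more with a fibril, the extremes of each role group, up to 5 with the smallest p for a difference in response, and those at or under 3 counts throughout. Named partners are among up to 3 in each direction of each list and comparison with control, and not all of these are described. Alternatives were DESeq2 size factors, library totals, the DESeq2 1.42.0 Wald test, no filter, at least 10 counts in every library, the replicate number as a block, leaving out each library, fits of the 2 compared groups, a 2-fold minimum and, chosen after seeing the data, leaving out both libraries that stood apart.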

Additional observations from a re-analysis of the deposited data

Results flagged for a closer look

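The test of the difference in response (microglia minus astrocytes, edgeR) singled out up to 5 Rab genes for each fibril, those with the smallest p. With Aβ42 these were Rab27a, at -2.32 on the log2 scale (-3.07 in microglia and -0.75 in astrocytes), and Rab15, at 3.29 (2.14 and -1.16). Rab32 was at -1.35 (2.01 and 3.35). Rab27b was at -3.85 and Rab3b at 4.07, with 3.15 and -3.18 in astrocytes. Neither could be tested in microglia alone, and these differences include low microglia counts. For Rab27b these counts were 9, 6 and 9 in control and 3, 17 and 11 with Aβ42. For Rab3b they were 5, 1 and 4 in control and 3, 16 and 20 with Aβ42. With microglia counts at or near the floor of 3 counts, the values of Rab27b and Rab3b cannot be read as sizes of a difference in response. With Aβ40 Rab27a was at -2.60 (-3.22 in microglia and -0.64 in astrocytes), Rab15 at 2.52 (1.48 and -1.05) and Rab32 at -1.26 (1.91 and 3.16). Rab29 was at -1.22 (-0.77 and 0.43). Rab3b was at 3.80, with -3.06 in astrocytes and microglia counts of 5, 1 and 4 in control and 3, 4 and 2 with Aβ40. These Rab3b counts are again at or near the floor, so its value cannot be read as the size of a difference in response. The part of other cells' RNA in the differences of all these genes was not tested.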

How the results depend on the processing

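The number of Rab genes called changed with some settings. A 2-fold minimum left 11 with Aβ42 and 8 with Aβ40 in astrocytes, 7 and 5 in microglia, and 1 for Aβ42 against Aβ40 in microglia, as it asks for more than the test alone. The astrocyte counts include Rab19, which could be tested only through the treated groups. Fits of the 2 compared groups alone gave 13 with Aβ40 and 1 for Aβ42 against Aβ40 in astrocytes, and 26 and 0 for the same comparisons in microglia. Shares of all genes are given above only for the main fits and for fits without libraries that stood apart. The other counts here therefore do not show a change particular to Rab genes. Without a filter, Aβ42 against Aβ40 in microglia gave 7. With both libraries that stood apart left out, an alternative chosen after seeing the data, 25 Rab genes differed in their response to Aβ42. Leaving out 1 library at a time gave 14 to 25 with Aβ42 and 13 to 26 with Aβ40 in astrocytes, 0 to 1 between the fibrils there, 14 to 31 with Aβ42, 10 to 27 with Aβ40 and 0 to 25 between the fibrils in microglia, 13 to 19 and 13 to 21 for the difference in response to Aβ42 and Aβ40, and 37 to 40 for untreated cells. The highest microglia counts came without Aβ42 replicate 1. Over all Rab calls and alternatives, 2723 recomputed values kept their direction and passed, 303 kept it and did not pass, 26 of these with the replicate block, and none turned. The cause was not tested.

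No pairing by replicate number was seen: correlations of same-numbered libraries' deviations ran from -0.53 to 0.36 in astrocytes and from -0.19 to 0.22 in microglia. Those of differently numbered libraries ran from -0.46 to 0.53 and from -0.21 to 0.23. In astrocytes, control replicate 2 was at 0.53 with Aβ42 replicate 3 and 0.49 with Aβ40 replicate 1. A pairing or batch that crosses the numbers is therefore not excluded, was not tested, and is not in the fits. With the replicate number as a block, 17, 15 and 0 Rab genes were called in astrocytes (Aβ42, Aβ40, Aβ42 against Aβ40), 19, 12 and 1 in microglia, 13 and 16 for the difference in response, and 31 for untreated cells. Rab4a and Rab40c (Aβ42) and Rab3d, Rab4a, Rab6a, Rab10, Rab29, Rab40b and the partners Chml, Osbpl1a, Rin3 and Tbc1d2b (Aβ40) did not pass with it in astrocytes, nor Rab5b, Rab35 and Plekhm2 (Aβ40) and Rab3a, Rab4b and Rab34 (Aβ42 against Aβ40) in microglia, nor Rab21, Rab31 and Rab35 (Aβ42) and Rab5b and Rab6a (Aβ40) for the difference in response, nor Rab5b, Rab6a, Rab13, Rab23, Rab28, Rab33b, Rab34 and Rab40b for untreated cells.

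Depth limits what the low members can show. Rab19, Rab26, Rab27b, Rab3b and Rab40b were tested in astrocytes and not in microglia with all libraries, and a level under the floor is not detectable at this depth rather than absent. Within their cell types, the least deep groups were control astrocytes and Aβ40 microglia. With 3 libraries a group, a p over the threshold does not show that levels were alike. The libraries that decide a call are named for calls given with a value from all libraries, not for every member counted. Scaling by library totals reversed no named call, but changed the split of the untreated comparison.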
